A study of Mus musculus with 30 samples.

Results

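Cortical glioblastoma tumours of mice that carried the EGFR variant A289V were compared with tumours that carried the variant R108K, across all genes. The members are the 4 A289V libraries and the 4 R108K libraries of a bulk RNA-seq series of 30 libraries. In these names the number is the residue: A289V puts valine in place of an alanine, and R108K lysine in place of an arginine. Both groups were cortical tumours taken at postnatal day 70, and the series' design text gives 3 to 5 mice for each variant. The other libraries were 5 A289I, 3 R108G, 3 R222C, 3 T263P, 3 EGFR wild type, 3 mCherry tumours, and 2 normal cortex. The species of the EGFR construct, how the tumours were made, the strain and the sex of the mice are not given in the sources used here, nor is it stated that each library was 1 mouse, so p-values measure the spread between these libraries.

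EGFR is a receptor tyrosine kinase of the cell surface. Binding of ligands such as EGF or TGF-alpha lets receptors pair and phosphorylate each other, and signals run through the RAS, ERK and PI3K pathways to growth and division. In glioblastoma the EGFR gene is often amplified or mutated, and the missense changes at these residues lie in the part of the receptor outside the cell.

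The 8 libraries held 2784129 to 16275235 reads in genes. The lowest were R108K library 1 with 2784129 reads and R108K library 4 with 5100515 reads, so low genes are least precise there. A289V libraries 1 to 4 carried library numbers 10, 20, 21 and 22, and R108K libraries 1 to 4 carried 7, 8, 28 and 34. Values are deposited as RPM, which here are reads scaled by a size factor per library. R108K libraries 2 and 4 had Y-linked transcripts (Ddx3y at 61.7 and 33.9 RPM) and low Xist, while the other 6 libraries had Xist above 175 RPM and Ddx3y at or below 0.383 RPM. The share of Rn45s, ribosomal RNA, was 0.291% in A289V library 1 and 3.01% to 3.36% in the other A289V libraries, against 0.343% and 0.248% in R108K libraries 1 and 2 and 4.57% and 2.47% in R108K libraries 3 and 4. No pair of the 8 libraries agreed within sampling noise.

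Most listed neuron genes and many astrocyte genes were higher in A289V tumours than in R108K tumours. Most mitosis and cytosolic ribosomal protein genes, and some genes of macrophages and T cells, were lower. In limma's moderated test on log2(RPM + 1), with Benjamini-Hochberg adjustment over 15824 genes, 3546 genes (22.4%) passed an adjusted p of 0.05. Of these, 2275 (14.4% of genes tested) were higher and 1271 (8.03%) were lower in A289V tumours. The median log2 difference of all genes tested was -0.04. The groups did not overlap in 3343 genes (21.1%), and 2557 (16.2%) both passed and did not overlap. edgeR's quasi-likelihood test on the recovered reads called 3350 genes (21.2%) and DESeq2 called 4128 (26.2%).

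The neuronal difference was unequal across A289V libraries. The 25 neuron markers summed to 13344, 17236, 5475 and 5732 RPM in A289V libraries 1 to 4, against 1946, 1978, 2194 and 2174 RPM in R108K libraries 1 to 4. A289V libraries 1 and 2 lay nearest the 2 normal cortex libraries, which summed to 23788 and 24130 RPM, and mCherry tumours ranged between 2629 and 5848 RPM. Without A289V libraries 1 and 2, 0 genes passed limma's adjusted threshold, while 2691 (17%) had an unadjusted p below 0.05 and all 3546 called genes kept their direction, at a median of 0.747 of their log2 size. With the mean of the neuron markers as a covariate, 0 genes passed, 1205 (7.63%) had an unadjusted p below 0.05, and 3243 of 3524 genes kept their direction at a median of 0.439 of their size. The slope of this covariate was fitted within the 9 groups over all 30 libraries. The neuron mean was 7.18 to 8.90 in A289V libraries and 5.54 to 5.67 in R108K libraries, so the adjustment carries that slope across a gap. Whether neuron content accounts for other differences was not tested. Among libraries numbered 20 to 34, 3 A289V against 2 R108K, 873 genes (5.52%) passed, 594 (3.75%) higher and 279 (1.76%) lower, and all 3546 kept their direction. The 3546 genes were called with these same libraries, so a kept direction in any of these fits is no separate support. Among libraries numbered below 20, 1 A289V against 2 R108K, 0 passed and 2369 (15%) had an unadjusted p below 0.05. In bulk tissue, fewer cells of a type and less RNA per cell cannot be told apart.

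Egfr, the gene of the receptor itself (mm10 chromosome 11, 16752203 to 16918158), had 254, 102.6, 586.7 and 138.3 RPM in A289V libraries 1 to 4, against 634.4, 197.1, 308.3 and 136.9 RPM in R108K libraries 1 to 4. The groups overlapped widely, with a single high library in each. All 8 lay above the mCherry tumours (22.1 to 35.4 RPM) and normal cortex (11.3 and 12.7 RPM). Outside these groups, R108G library 1 had 17.5 RPM, below the mCherry tumours. The species of the construct is not given, so how far values on mm10 measure the construct is unknown. The log2 difference was -0.33 ± 0.95 (SE), with a limma adjusted p of 0.834, and an exact two-sided permutation test over the 8 libraries gave p = 0.629, where 0.0286 is the smallest it can give. The sign turned to 0.08 without A289V libraries 1 and 2, to 0.02 without A289V library 2, to 0.08 without R108K library 1, and to 0.64 with the neuron covariate.

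Of the EGFR family receptors and their ligands, 15 of the 17 listed genes were tested, with a median log2 difference of 0.08. In A289V tumours 1 (6.67%) was higher and 0 were lower, a share below the 14.4% of all genes higher. Nrg3, a neuregulin ligand of ERBB4 that neurons make, had 24.9, 43.8, 15 and 11.8 RPM in A289V libraries 1 to 4, against 3.07, 1.40, 0.604 and 2.64 RPM in R108K libraries 1 to 4. Every A289V library was above every R108K library, and the log2 difference was 3.01 ± 0.64 (limma adjusted p = 0.00242). The receptor genes Erbb4 (0.86 ± 0.39, adjusted p = 0.12) and Erbb2 (0.51 ± 0.50, adjusted p = 0.486) did not pass. Of 15 targets and feedback genes of the ERK pathway, 1 (6.67%) was higher and 0 were lower, with a median of 0.58, again a share below 14.4%. That gene was Spred2, an inhibitor of RAS and ERK signalling, at 51.1, 66.2, 38.3 and 32.7 RPM in A289V libraries 1 to 4, against 14.6, 28, 16.3 and 23.8 RPM in R108K libraries 1 to 4 (1.15 ± 0.34, adjusted p = 0.0173). Dusp5, Spry2 and Spred1, other feedback genes, did not pass, and Spred2 did not without A289V library 1 or 2 or R108K library 1 or 3.

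The 12 genes with the largest rises had log2 differences of 3.79 to 4.26. Vit, which encodes vitrin, a matrix protein, had the largest difference, with 195.5, 2.56, 387.8 and 9.95 RPM in A289V libraries 1 to 4, against 1.15, 1.40, 0.981 and 1.13 RPM in R108K libraries 1 to 4. A289V libraries 1 and 3 were far above the rest, and A289V library 2 was just above the highest R108K library (4.26 ± 0.94, limma adjusted p = 0.00307). Normal cortex had 1.03 and 1.84 RPM of Vit and mCherry tumours 1.51 to 7.90 RPM, so Vit did not follow the cortex level as the next genes did. Slc17a7, the glutamate transporter of excitatory synaptic vesicles, had 1639, 2239, 702.5 and 491.6 RPM in A289V libraries 1 to 4, against 72.1, 71.9, 49.9 and 47.9 RPM in R108K libraries 1 to 4, and 1572 and 1728 RPM in normal cortex. The groups did not overlap and A289V libraries 1 and 2 were at or above the cortex level (4.14 ± 0.98, adjusted p = 0.0046). Car10, a protein of the carbonic anhydrase family that binds neurexins, had 117, 140.4, 53.6 and 86.0 RPM in A289V libraries, against 4.98, 5.82, 2.49 and 4.15 RPM in R108K libraries (4.18 ± 0.70, adjusted p = 0.00093). The other 9 were Rimbp2 of the presynaptic active zone, the calcium-binding Necab1 and Hpcal4, the vesicle protein Sv2b, Scube1, the heparan sulfate enzyme Hs3st2, the potassium channel Kcnh1, the phosphodiesterase Pde1a, and Fam163b, with log2 differences of 3.79 to 4.16. With the neuron covariate, Slc17a7, Sv2b and Hpcal4 turned to -0.20, -0.12 and -0.04.

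The 12 largest falls had log2 differences of -4.14 to -2.80. Ccl8, a chemokine that attracts monocytes, had 1.07, 3.74, 4.36 and 17.7 RPM in A289V libraries 1 to 4, against 54.8, 121.4, 188.1 and 72.8 RPM in R108K libraries 1 to 4. The highest A289V library lay below the lowest R108K library (-4.14 ± 1.02, limma adjusted p = 0.00596). Tgfbi, a secreted matrix protein, had 11.2, 14.0, 47.1 and 41.4 RPM in A289V libraries, against 541.2, 211.7, 214.2 and 144.3 RPM in R108K libraries (-3.31 ± 0.87, adjusted p = 0.00842). Bfsp2, known as a filament protein of the eye lens, had 14.2, 14.5, 42.6 and 11.5 RPM in A289V libraries, against 179.8, 223.7, 96.4 and 152.4 RPM in R108K libraries. Normal cortex had 2.75 and 5.66 RPM of Bfsp2 and mCherry tumours 8.01 to 12.4 RPM, so all R108K libraries stood above both (-3.05 ± 0.58, adjusted p = 0.00137). The galectin gene Lgals3 had 37.2, 15.1, 37.3 and 11 RPM in A289V libraries, against 109.2, 1119, 70.9 and 74.5 RPM in R108K libraries, where library 2 alone stood high. The others were Insl6, a relaxin-family hormone, the myeloid lectin Clec12a, Ms4a7, the receptor genes Klra2 and Sirpb1b, the acute-phase protein Saa3, the phosphatase Acp5 and the scavenger receptor Msr1, with log2 differences of -3.77 to -2.85. Klra2, Sirpb1b and Ms4a7 belong to families of close copies, so their reads are uncertain.

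**Figure D1:**
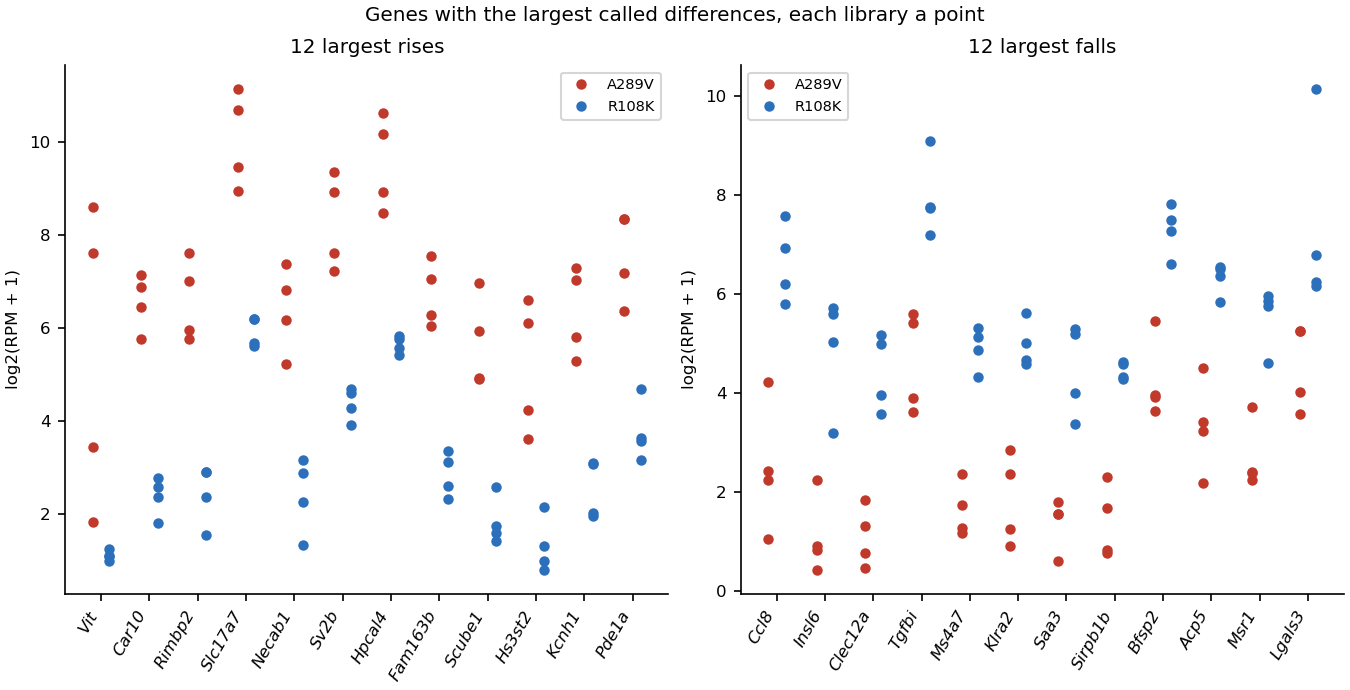
Levels of the 12 genes with the largest rises (left) and the 12 with the largest falls (right), as log2(RPM + 1), each point a library, A289V red and R108K blue. The groups do not overlap in any of the 24 genes, a condition of their choice, and Vit spreads most among A289V libraries.

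Most neuronal genes were higher in A289V tumours. Of 25 neuron markers, 22 were higher and 0 lower, with a median log2 difference of 2.48, against 14.4% and 8.03% of all genes tested. Syn1, a synaptic vesicle protein, had 526.2, 672.9, 218.5 and 184.7 RPM in A289V libraries 1 to 4, against 40.6, 31.8, 33.7 and 36.4 RPM in R108K libraries 1 to 4, without overlap (3.25 ± 0.56, limma adjusted p = 0.000947). Of 14 markers of excitatory neurons 12 were higher (median 2.78), of 15 of interneurons 10 (median 2.26), and of 20 subunits of glutamate and GABA receptors 18 (median 2.35), with 0 lower in each. The interneuron count was 3 without A289V library 1 and 3 without A289V library 2, and the receptor count 11 without A289V library 2. Gad1, which makes GABA, had 470, 461.4, 100.4 and 108.1 RPM in A289V libraries, against 36.0, 26.4, 17.7 and 36.6 RPM in R108K libraries. Libraries 1 and 2 stood apart from the other A289V libraries for this gene (2.93 ± 0.83, adjusted p = 0.0136; -0.88 with the neuron covariate). Grin2b, an NMDA receptor subunit, had 14.1, 39.1, 8.20 and 10.7 RPM in A289V libraries, against 0.767, 1.09, 0.453 and 0.566 RPM in R108K libraries (3.23 ± 0.54, adjusted p = 0.000915). Without A289V libraries 1 and 2 the medians of these 4 lists were 1.74, 2.03, 1.42 and 1.87. Neurons and other cells induce immediate early genes within minutes of a stimulus. Of 13, 3 (23.1%) were higher, Arc, Egr3 and Egr4, and 0 lower, against 14.4% and 8.03% of all genes. Their median was 0.88, but -0.36 among library numbers below 20. The count was 2 without A289V library 2 or R108K library 3, and 4 without R108K library 1. The mean log2(RPM + 1) of the list was 4.49 to 6.84 in A289V libraries and 3.73 to 4.92 in R108K libraries, so the groups overlapped. Arc, a synaptic plasticity gene, had 66.9, 615.5, 41.3 and 180.9 RPM in A289V libraries, against 15.7, 8.39, 7.77 and 9.81 RPM in R108K libraries, with library 2 highest (3.60 ± 0.89, adjusted p = 0.00587).

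Of 18 astrocyte markers, 10 (55.6%) were higher and 0 lower in A289V tumours, against 14.4% and 8.03% of all genes tested. Their median was 1.25, 1.10 without A289V libraries 1 and 2, and 0.31 with the neuron covariate, and the count was 6 without A289V library 2 and 6 without R108K library 1. Slc1a2, the main glutamate transporter of astrocytes, had 970.9, 1922, 440.5 and 521.9 RPM in A289V libraries 1 to 4, against 50.2, 130.4, 90.7 and 133.9 RPM in R108K libraries 1 to 4, and 2283 and 2513 RPM in normal cortex (3.09 ± 0.63, limma adjusted p = 0.00203). Of 17 markers of oligodendrocyte precursors, 0 passed in either direction by limma, edgeR and DESeq2, 0 had an unadjusted p below 0.05 in limma, and their median was -0.30, or 0.29 without A289V libraries 1 and 2. Without R108K library 2, 2 of them passed. Olig2, a transcription factor of the lineage, had 151, 111.7, 319 and 395.1 RPM in A289V libraries, against 256.8, 280.4, 460.8 and 605.9 RPM in R108K libraries, overlapping (-0.81 ± 0.42, adjusted p = 0.176). Of 17 myelin genes, 2 (11.8%) were higher and 0 lower (median 0.92), a share below the 14.4% of all genes, and 1 passed without A289V library 1, A289V library 2 or R108K library 3. The 2 genes were Gpr37, a receptor of oligodendrocytes, and Ermn, of their cytoskeleton. Gpr37 had 91.6, 76.9, 100.5 and 55.4 RPM in A289V libraries, against 19.5, 11.5, 3.55 and 23.6 RPM in R108K libraries (2.62 ± 0.54, adjusted p = 0.0021). Its difference was 2.54 without A289V libraries 1 and 2 and 2.70 with the neuron covariate. Of 18 neural progenitor genes, 4 (22.2%) were lower and 0 higher (median -0.36, and 0.10 without A289V libraries 1 and 2), and 2 passed without A289V library 2 or without R108K library 3. They were Sox2, Bmi1, and the BMP-induced inhibitors of differentiation Id1 and Id3. Id3 had 100.5, 85.1, 85.4 and 169.3 RPM in A289V libraries, against 210.1, 208.2, 417 and 334.2 RPM in R108K libraries (-1.40 ± 0.28, adjusted p = 0.00195).

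**Figure D2:**
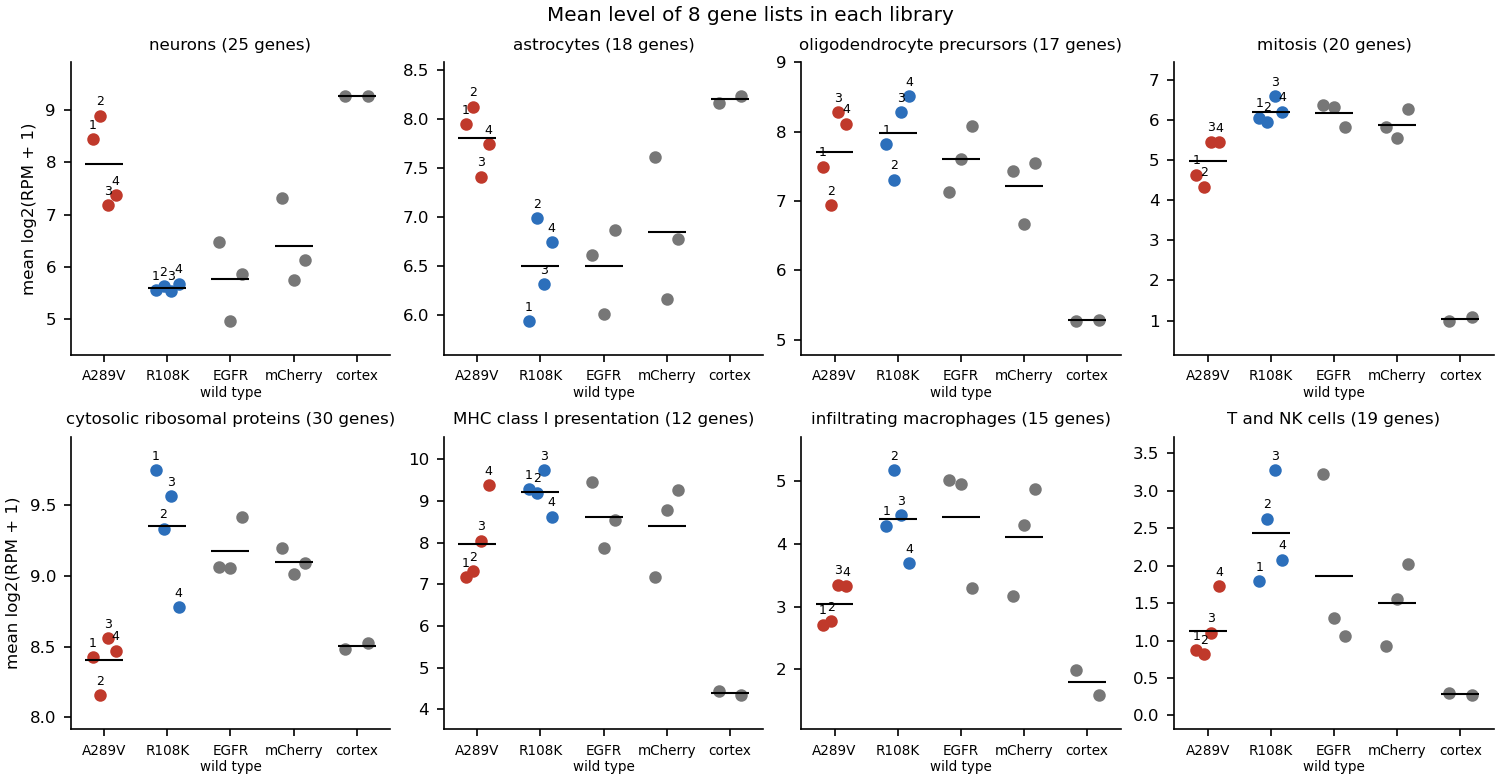
Mean log2(RPM + 1) of 8 gene lists in each library of the A289V, R108K, EGFR wild type, mCherry and normal cortex groups, with group means as lines and library numbers within A289V and R108K. The axes do not start at 0. A289V libraries 1 and 2 lie nearest the cortex for neurons, and the A289V libraries lie below every R108K library for ribosomal proteins, mitosis and infiltrating macrophages.

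Most mitosis genes were lower in A289V tumours, and some DNA replication genes. Of 20 mitosis genes, 17 were lower and 0 higher, with a median log2 difference of -1.28, and of 20 DNA replication genes 7 were lower and 0 higher, with a median of -0.66, against 8.03% of all genes lower. The mitosis count was 9 without A289V library 1, 8 without A289V library 2 and 9 without R108K library 3. The DNA replication count was 2 without A289V library 1, 1 without R108K library 3 and 2 without R108K library 4. It was 0 by limma without A289V library 2, where 6 were lower with an unadjusted p below 0.05. The DNA replication median was -0.37 without A289V libraries 1 and 2 and -0.16 with the neuron covariate. Cdc20, an activator of the anaphase-promoting complex, had 18.5, 21.8, 32.9 and 41.4 RPM in A289V libraries 1 to 4, against 110.8, 52.9, 154 and 96.0 RPM in R108K libraries 1 to 4, without overlap (-1.79 ± 0.43, limma adjusted p = 0.00475). Bub1, a kinase of the spindle checkpoint, had 13.2, 6.88, 18.8 and 17.7 RPM in A289V libraries, against 32.2, 32.6, 34.2 and 117.1 RPM in R108K libraries (-1.70 ± 0.39, adjusted p = 0.00388). A289V libraries 1 and 2, with the most neuronal RNA, had the lowest mean log2(RPM + 1) of the mitosis list (4.63 and 4.33, against 5.46 and 5.44 in A289V libraries 3 and 4), and R108K libraries had 5.95 to 6.59. The mitosis median was -0.79 without A289V libraries 1 and 2 and -0.67 with the neuron covariate. Of 15 genes of the RB pathway, which holds inhibitors and drivers of the cell cycle, 3 (20%) were lower and 0 higher, against 8.03% of all genes lower, and 1 passed without A289V library 2, R108K library 2 or R108K library 3. The 3 were Cdkn2a, Cdkn2c and Cdkn1b, all inhibitors of cyclin-dependent kinases. Cdkn2a and Cdkn2c lie on chromosome 4, which is described below. Cdkn2c had 13.7, 19.9, 17.9 and 19.2 RPM in A289V libraries, against 61.7, 40.8, 102.9 and 78.3 RPM in R108K libraries (-1.88 ± 0.39, adjusted p = 0.00209; -1.80 without A289V libraries 1 and 2). Of 14 p53 targets, 2 (14.3%) were lower (Trp53inp1 and Bax) and 1 (7.14%) was higher (Plk2), against 8.03% and 14.4% of all genes. By limma 0 passed without A289V library 1, A289V library 2 or R108K library 3. In each of these fits 3 were lower with an unadjusted p below 0.05, and genes higher were not counted. Without R108K library 1, 1 passed.

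Promoters of 3 mitosis genes are shown because the list moved together and promoters of mitotic genes are known for CCAAT boxes and for the CHR element, whose letters are TTTGAA. Cdk1, the kinase that drives mitosis, was added after its values were seen (-1.16 ± 0.36, limma adjusted p = 0.0216). The 250 bases before the annotated start come from RefSeq on GRCm38.p6, for Bub1 (chr2:127831860-127832109, minus strand), Cdc20 (chr4:118437344-118437593, minus strand) and Cdk1 (chr10:69352913-69353162, minus strand). Capitals mark CCAAT and TTTGAA on either strand.
Bub1: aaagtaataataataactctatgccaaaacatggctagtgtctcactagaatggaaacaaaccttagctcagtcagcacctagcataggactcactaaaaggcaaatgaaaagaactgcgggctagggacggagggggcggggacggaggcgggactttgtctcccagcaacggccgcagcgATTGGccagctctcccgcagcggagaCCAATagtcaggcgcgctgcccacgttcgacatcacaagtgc
Cdc20: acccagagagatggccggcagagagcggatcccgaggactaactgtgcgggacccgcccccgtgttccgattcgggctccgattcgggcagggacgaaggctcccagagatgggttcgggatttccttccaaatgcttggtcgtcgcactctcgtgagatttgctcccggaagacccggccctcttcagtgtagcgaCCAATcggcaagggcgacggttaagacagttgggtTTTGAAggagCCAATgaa
Cdk1: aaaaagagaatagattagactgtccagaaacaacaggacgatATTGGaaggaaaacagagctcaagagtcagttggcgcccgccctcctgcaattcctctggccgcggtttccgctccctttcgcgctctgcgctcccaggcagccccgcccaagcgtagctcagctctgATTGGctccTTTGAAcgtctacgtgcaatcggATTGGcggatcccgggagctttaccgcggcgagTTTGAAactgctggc
Of the 20 mitosis genes, 17 had a promoter in the RefSeq table. CCAAT, searched on both strands, was in 15 of the 17 (88.2%), against 34.5% of 27025 promoters of the same length, and TTTGAA, searched on both strands, was in 7 (41.2%), against 16.3%. The motifs share no letters by overlap in the 3 sequences shown, and a match here is a string of letters and no evidence of binding.

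Cytosolic ribosomal protein genes were lower as a set: 24 of 30 (80%) were lower and 0 higher (median -1.0), against 8.03% of all genes lower. Rpl11, a protein of the large subunit, had 365.2, 349.5, 370.5 and 505.0 RPM in A289V libraries 1 to 4, against 1373, 812.8, 1411 and 787.7 RPM in R108K libraries 1 to 4, and 511.2 and 516.8 RPM in the 2 normal cortex libraries. Every A289V library was below every R108K library and below both cortex libraries (-1.42 ± 0.25 against R108K, limma adjusted p = 0.000997). The median was -0.87 without A289V libraries 1 and 2 and -0.53 with the neuron covariate, and -0.07 for A289I against R108G. Processed copies of ribosomal protein genes can take reads from them, so single values are uncertain. Of 30 nuclear genes of oxidative phosphorylation, 4 (13.3%) were lower and 1 (3.33%) higher (median -0.29), against 8.03% and 14.4% of all genes. The 5 called became 3 without A289V library 2, R108K library 1 or R108K library 3 and 10 without R108K library 4. The succinate dehydrogenase subunits were split, with Sdhb (-0.82 ± 0.19, adjusted p = 0.00413) and Sdhc (-0.60 ± 0.18, adjusted p = 0.0174) lower and Sdha (0.65 ± 0.19, adjusted p = 0.0169) higher. Of 18 hypoxia and glycolysis genes, 2 (11.1%) were lower, Car9 and Ankrd37, near the 8.03% of all genes lower. The hypoxia count was 1 without A289V library 1, A289V library 2 or R108K library 1, and 4 without R108K library 4. Of 25 genes of the mesenchymal glioma state, 6 (24%) were lower and 0 higher, against 8.03% of all genes lower (median -0.79). The median was 0.05 with the neuron covariate, -0.18 within library numbers 20 to 34 and -1.28 below 20. The mean log2(RPM + 1) of this list was 4.75, 4.62, 5.06 and 4.43 in A289V libraries 1 to 4, against 5.76, 6.77, 5.17 and 4.82 in R108K libraries 1 to 4, so R108K library 2 stood highest and the groups overlapped.

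Some markers of infiltrating macrophages and lymphocytes were lower in A289V tumours. Of 15 markers of infiltrating macrophages, 4 (26.7%) were lower and 0 higher, against 8.03% of all genes lower. The macrophage median was -1.22, and -1.01 without A289V libraries 1 and 2. Of 16 microglia markers 1 (6.25%) was higher and 0 lower (median 0.56), a share below the 14.4% of all genes higher. The mean was higher in A289V tumours for 11 microglia markers and lower for 5. Lyz2, lysozyme of myeloid cells, had 59.6, 106.5, 142.5 and 114.6 RPM in A289V libraries 1 to 4, against 300.5, 465.4, 378.5 and 292.5 RPM in R108K libraries 1 to 4 (-1.79 ± 0.48, limma adjusted p = 0.00906). Siglech, a lectin that marks resident microglia, had 19.2, 13.8, 11.3 and 32.5 RPM in A289V libraries, against 2.68, 2.95, 1.81 and 5.09 RPM in R108K libraries (2.24 ± 0.64, adjusted p = 0.0144). Of 19 tested T and NK cell markers 4 were lower and 0 higher (median -1.36), among them Cd8a and Cd8b1 of cytotoxic T cells, a share of 21.1% against 8.03% of all genes lower. The count was 1 without A289V library 1, 2 or 3, 7 without A289V library 4 and 2 without R108K library 2. It was 1 with a term for 3 ranges of library number. By limma it was 0 without R108K library 3, where 6 were lower with an unadjusted p below 0.05. Cd8a had 0.889, 0, 0.943 and 2.29 RPM in A289V libraries, against 3.83, 10.4, 18.4 and 5.47 RPM in R108K libraries (-2.29 ± 0.79, adjusted p = 0.039). Of 12 tested genes of MHC class I presentation 4 (33.3%) were lower and 0 higher, against 8.03% of all genes lower. The class I median was -1.25, and -0.43 without A289V libraries 1 and 2, but A289V library 4 reached the R108K range. The class I count was 1 without A289V library 1, 1 without A289V library 2 and 9 without A289V library 4. B2m, the light chain of class I, had 974.6, 951.7, 1705 and 2528 RPM in A289V libraries, against 3374, 5105, 3732 and 2306 RPM in R108K libraries, overlapping (-1.30 ± 0.34, adjusted p = 0.0083). The class I heavy-chain genes H2-K1 and H2-Q4 are close copies that may share reads. Of 20 interferon response genes 1 (5%) was lower, Bst2, a share below the 8.03% of all genes. Of 8 class II genes 0 passed by limma, edgeR and DESeq2 and 1 had an unadjusted p below 0.05 in limma. The interferon and class II medians were -0.97 and -1.43. Bst2 did not pass without A289V library 1 or 2 or R108K library 2 or 3, and 1 class II gene passed without A289V library 4. Of 7 B and plasma cell markers 1 (14.3%) was lower by limma, Mzb1, against 8.03% of all genes, and 0 by edgeR and DESeq2. The B cell median was -0.97, and the count lay between 0 and 4 when 1 library was left out.

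Of 942 tested genes on mm10 chromosome 4, 229 (24.3%) were lower in A289V tumours and 86 (9.13%) higher. Over the tested genes of other chromosomes 6.93% were lower, and over all genes tested 14.4% were higher. The chromosomes were compared after the values were seen, so no test is given. The count was 151 without A289V library 1 and 0 without A289V libraries 1 and 2. Chromosome 4 held 6.18% of tested genes with a position and 18.8% of those that were lower. Over the 673 of them whose mean reached 10 RPM, the median log2 difference to the tumour median was -0.38, -0.16, -0.59 and -0.03 in A289V libraries 1 to 4, against -0.02, -0.12, 0.36 and 0.39 in R108K libraries 1 to 4. The low values were those of A289V libraries 1 and 3 and the high ones those of R108K libraries 3 and 4, while the others overlapped, and normal cortex had -0.19 and -0.20. The median difference between groups was -0.49, and -0.49 without A289V libraries 1 and 2, -0.42 with the neuron covariate, -0.67 among library numbers 20 to 34, and -0.33 below 20. Split into 5 stretches of like gene number from end to end, the medians were -0.43, -0.49, -0.63, -0.57 and -0.35. Rpl11, Rps6, Cdc20, Id3, Cdkn2a, Cdkn2c, Car9, Sdhb and Trp53inp1, all lower, lie there. Without the chromosome 4 members the ribosomal protein median was -0.97 and that of mitosis -1.25. By contrast, 1 of the 11 other RB pathway genes was lower (median -0.26), and 1 of the 12 other p53 targets (median -0.06). Those shares lay near the 8.03% of all genes lower. For A289I against R108G the median on chromosome 4 was -0.11. On chromosomes 12 and 15, 24.4% and 20.4% of genes were higher and 1.88% and 1.47% lower, against 14.4% and 8.03% of all genes. For chromosome 12 the library medians were 0.18, 0.21, 0.15 and -0.02 in A289V libraries 1 to 4. They were -0.19, 0.03, -0.46 and -0.14 in R108K libraries 1 to 4. Single libraries stood out elsewhere: R108K library 4 was at 0.59 on chromosome 5 and 0.44 on chromosome 8, and R108K library 3 at -0.46 on chromosome 12. DNA copy number was not measured.

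**Figure D3:**
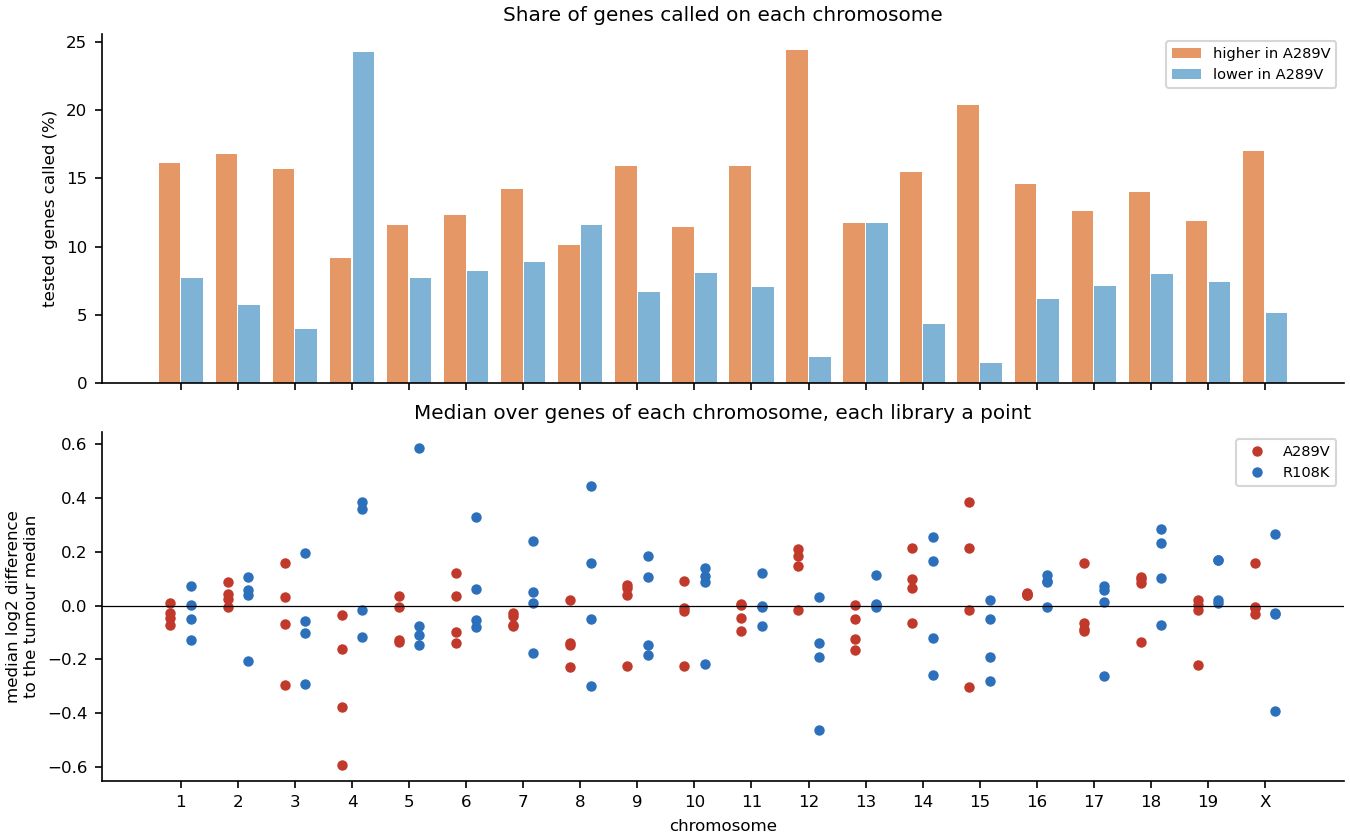
Upper panel, the share of tested genes called higher or lower in A289V tumours on each chromosome, as bars from 0; lower panel, the median log2 difference of each library to the median of all tumours, over genes whose mean reached 10 RPM, A289V red and R108K blue. Chromosome 4 has the highest share of lower genes, 24.3%.

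Shifts over shorter stretches were sought with windows of 7 neighbouring genes and a median past 1.5 in size, and windows that touched were joined into runs. The median over a joined run can lie below 1.5, and it was 0.367 to 2.26 in size. There were 36 runs, 11 in A289V library 1, 19 in A289V library 2, 2 in R108K library 2 and 4 in R108K library 3. A289V library 1 had 5 raised and 6 lowered runs, and A289V library 2 had 13 raised and 6 lowered. Raised in both was a stretch of chromosome 2 with the neuronal genes Snap25 and Lamp5 (medians 1.41 and 1.58). Lowered in both was a stretch of the MHC region of mm10 chromosome 17 (34143307 to 34344645), with medians of -1.60 and -1.74. R108K library 3 had a raised MHC stretch (34028269 to 34603690, median 1.30) and a raised stretch of chromosome 14 from Bmp4 to Fbxo34 (46383520 to 47531962, median 1.48).

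The same 2 receptor residues were changed to other amino acids in the A289I and R108G tumours, which share no library with the groups above. For A289I against R108G, 0 genes passed limma's adjusted threshold, 415 (2.62%) had an unadjusted p below 0.05, edgeR called 4 (0.0253%) and DESeq2 14 (0.0887%). Of the 3546 genes called for A289V against R108K, 2222 (62.7%) had the same sign for A289I against R108G, against 57% of all genes. The median of the neuron list was -0.08, that of mitosis -0.37 and that of ribosomal proteins -0.07. Astrocyte markers had -0.05 and infiltrating macrophage markers -0.14. Myelin genes had 1.08, T and NK cell markers -0.68, B and plasma cell markers -0.64 and DNA replication genes -0.47. For these last lists A289V against R108K gave the same sign, with medians of 0.92, -1.36, -0.97 and -0.66. The test of the difference between the 2 comparisons passed in 5 genes (0.0316%), so for nearly all genes the comparisons were not shown to differ. The library numbers of these tumours are all above 37, and the number range cannot be told apart from the variant.

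**Figure D4:**
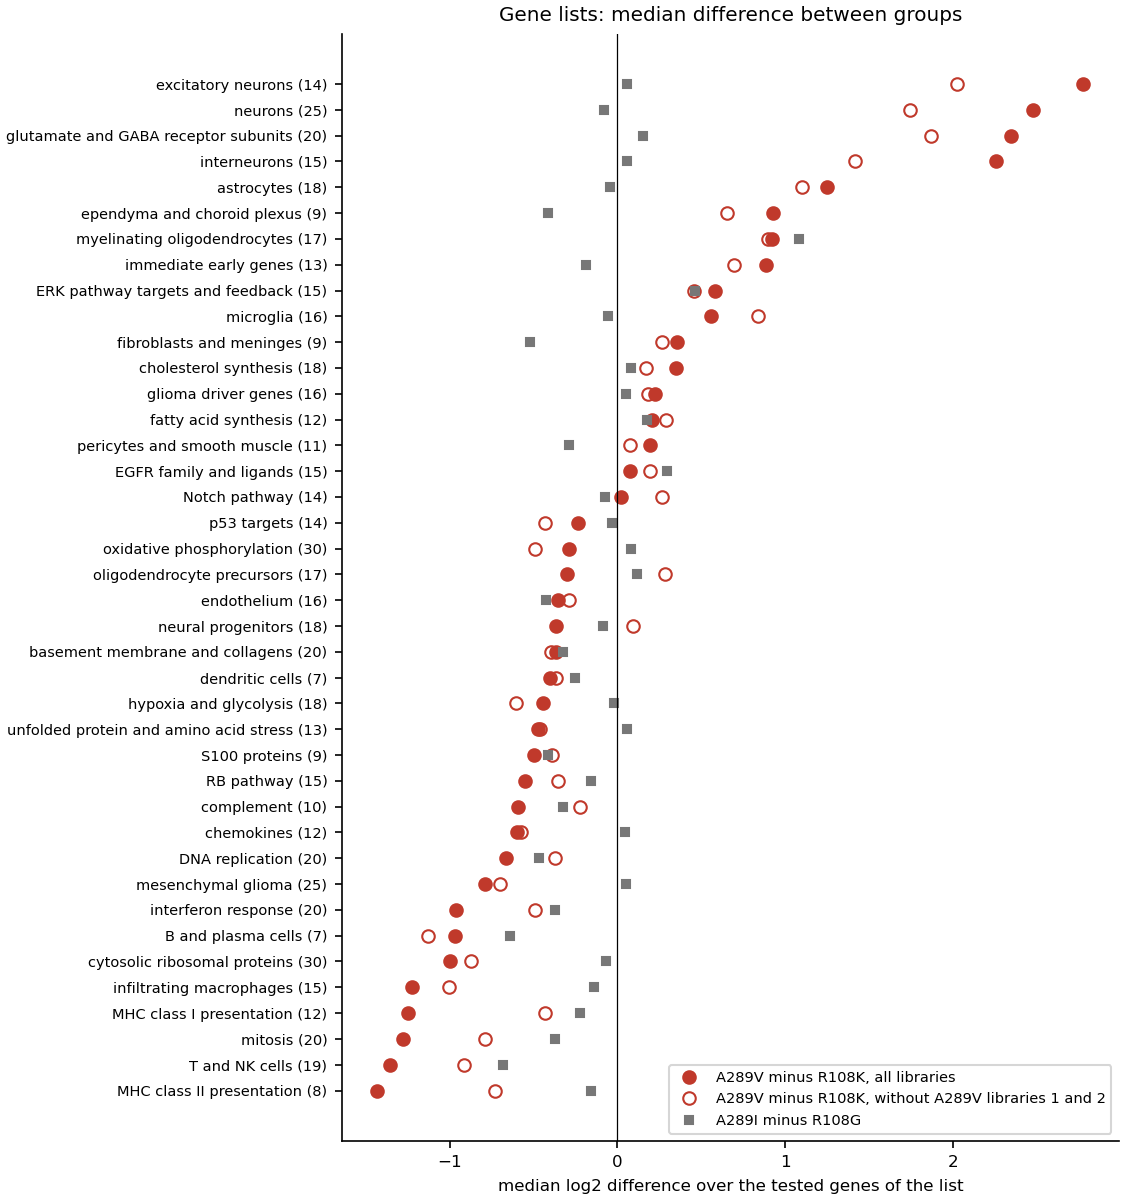
Median log2 difference over the tested genes of each list, for A289V minus R108K in all libraries (filled circles), without A289V libraries 1 and 2 (open circles) and for A289I minus R108G (squares), with the number of genes in brackets. The neuronal lists reach 2.78, and their squares lie between -0.08 and 0.15.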

How the data were processed

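Bulk tissue was measured by RNA-seq of poly(A) RNA with a stranded library kit, per the labels' protocols. Per the submitters' processing notes, STAR 2.5.0a, DESeq2 1.20.0 and the mm10 build were used. The deposited values are a signal that the authors call RPM: reads divided by a size factor per library and one common number. All values came out as whole reads within 0.05 of a read, and these recovered reads were used for edgeR 4.0.16 and DESeq2 1.42.0. The table was expected to hold reads scaled by library total and held size-factor values instead, so the test stayed on the log scale. limma 3.58.1 was fitted to log2(RPM + 1) for genes with at least 1 RPM in 3 of 30 libraries, with 9 group means, trend and robust variance, 21 residual degrees of freedom and Benjamini-Hochberg adjustment; adjusted p-values without another name come from it, and values after ± are its standard errors. A log2 difference on this scale understates changes of low genes. Of 24421 genes listed, 15824 were tested, and 15233 had a position in GENCODE M21. On simulated data with as many genes and libraries, 10 of 66 genes changed 2-fold (15.2%) were recovered. Of 67 genes with a log2 change of 3, 56 (83.6%) were. Few genes were changed there, and 103 were called in all, against 3546 in the data. The adjusted threshold depends on how many genes change, so these shares need not hold for A289V against R108K. Named genes were Egfr, the 12 largest called rises and falls without overlap and with a group mean of at least 5 RPM, and up to 4 members of lowest p of each list described, with any called the other way; a gene that this rule names is not reported here. Members and lists were chosen with earlier results of these data known. Chromosome medians and leaving out R108K libraries 2 and 4 were added after seeing the data.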

Additional observations from a re-analysis of the deposited data

Results flagged for a closer look

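In 12 of 248 groups of 4 libraries, the library farthest out lay further from the rest than Dixon's 95% limit for 4 samples, and chance gives about 1 in 20. The high A289V libraries were library 2 for Insl6 (3.74 RPM, against 0.356 to 0.884 RPM in the other A289V libraries), Dusp5 (14.5 RPM) and Egr3 (191.1 RPM), library 3 for Bfsp2 (42.6 RPM) and Msr1 (12.1 RPM), and library 4 for Plac8 (16.3 RPM) and Rpl11 (505 RPM). Among R108K libraries, library 2 was high for Lgals3 (1119 RPM, against 70.9 to 109.2 RPM in the others), library 3 was low for Clec7a (20.8 RPM) and high for Nusap1 (94.5 RPM), library 4 was high for Bub1 (117.1 RPM) and library 1 for Car9 (109.6 RPM).

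In 5 genes, named after their values were seen, the difference between A289V and R108K was not the same as that between A289I and R108G by a limma interaction test adjusted over all genes. Ak5, an adenylate kinase of brain, was 3.31 ± 0.40 between A289V and R108K and -0.05 between A289I and R108G, an interaction of 3.36 (adjusted p = 0.0358). Atp2b4, a plasma membrane calcium pump, was 2.84 ± 0.37 and -0.32, an interaction of 3.16 (adjusted p = 0.0358). For 5830417I10Rik the 2 differences were of like size and opposite sign, 0.86 ± 0.21 and -0.83, an interaction of 1.69 (adjusted p = 0.0383). Ccdc108 had 1.63 and -0.78, an interaction of 2.41, and Rxfp3, a relaxin-family receptor, 1.90 and -0.74, an interaction of 2.64. Rxfp3 and Ccdc108 had at most 5.87 RPM in any of the 16 libraries of these 4 groups.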

How the results depend on the processing

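The count of genes called, 3546, was 2351 in a fit of only the 8 libraries, 2203 in that fit with a term for the 2 number ranges, 873 within library numbers 20 to 34, and 0 within numbers below 20, with the neuron covariate, and without A289V libraries 1 and 2. Leaving out 1 library gave 1872 (without A289V library 2) to 3738 (without A289V library 4), and 2226 without A289V library 1. Without R108K libraries 2 and 4 it was 3291. The 7 lists with at least 50% of tested members called became 0 within numbers 20 to 34, below 20, with the neuron covariate, and without A289V libraries 1 and 2, and 4 to 8 when 1 library was left out. The genes called both for A289V against R108K and for A289I against R108G were 0, 2 with library weights, 1 with edgeR and 1 with DESeq2. Runs of neighbouring genes numbered 36, 8 with windows of 11 genes, and 185 at a median of 1. The Egfr difference ranged between -0.81 (without A289V library 3) and 0.082 (without R108K library 1) when 1 library was left out, and was 0.080 without A289V libraries 1 and 2 and 0.64 with the covariate. With the covariate, Slc17a7 (-0.20), Sv2b (-0.12), Hpcal4 (-0.039), Gad1 (-0.88), Mal (-0.16), Gpr34 (-0.072) and Cx3cr1 (-0.18) changed sign, and Nkx2-2 did (0.043) without A289V libraries 1 and 2. The other named genes kept their sign under every alternative run. The cause of these changes was not tested. No paired analysis was possible because the groups share no library number.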
